A study of Mus musculus with 16 samples.

Results

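Fibronectin, the tenascins, periostin, TGFBI, vitronectin and the emilins are secreted glycoproteins of the vessel wall, and their 8 genes Fn1, Tnc, Tnxb, Postn, Tgfbi, Vtn, Emilin1 and Emilin2 are described here, chosen by symbol from a table of 54532 genes. The samples were aortas of male Apoe-/- mice (strain C57BL/6j, aged 8 to 12 weeks at the start) infused by osmotic pump for 7 days. One group of 8 received saline (0.9% sodium chloride) and the other group of 8 received angiotensin II (Ang II), a hormone that raises blood pressure, at 1000 ng per kg per min. By the labels' protocol all the mice were Apoe-/-, which lack apolipoprotein E and have high plasma cholesterol, and the adventitia had been removed from every aorta, so both groups share that background. The deposited columns are nevertheless named WT, and Apoe itself was read in every library, at 14.7 to 110.1 FPKM with saline and 6.81 to 17.2 with Ang II. Values per gene do not tell which exons those reads came from, so the genotype could not be checked and is given as labelled. The comparison addresses how Ang II changes gene expression in the wall. The labels do not say which mouse each library came from, and p-values reflect only how far these 16 samples differ from one another, which may be in part technical. Values are FPKM, read counts divided by transcript length and by library size, and each group has n = 8.

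Fibronectin forms fibrils on the surface of cells through integrins, and other matrix proteins are laid down on those fibrils. Tenascin C and periostin are matricellular proteins made in development, injury and repair. Tenascin X, the product of Tnxb, is a large tenascin of mature connective tissue that binds collagen fibrils, and its loss causes a form of Ehlers-Danlos syndrome in humans. TGFBI shares the fasciclin domains of periostin, and vitronectin is a plasma protein made mainly in liver. EMILIN1 and EMILIN2 sit where elastin meets microfibrils, and EMILIN1 restrains the processing of the TGF-beta precursor in mice.

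The samples were mainly smooth muscle by their markers, all 8 of which were measured. Their summed FPKM ran from 9006 to 15327 with saline and from 6348 to 10829 with Ang II, and 4 of the 8 fell by limma (log2 fold changes of Myh11 -0.88, Smtn -0.63, Lmod1 -0.57 and Des -0.95) and none rose. Of 8 endothelial markers Pecam1 (-0.91) and Egfl7 (-1.16) fell and Erg (0.72) rose, and of 5 tested brown adipocyte markers Cidea (-1.38) and Cox7a1 (-1.43) fell. Over all 15007 genes tested 24.9% fell and 9.54% rose by limma, and the endothelial counts are near these shares. The part of the marker changes in the changes of the 8 genes was not tested. Fibroblast markers belong to the adventitia but also to other layers of the wall. They were present at a summed FPKM of 82.2 to 238 in saline libraries and 67.8 to 238 in Ang II libraries. The library totals recovered from the FPKM ran from 14606864 to 17590094 reads in the saline group and reached 15779135 to 19988717 with Ang II. Saline 7 and Saline 8 stood apart from the other libraries on the first principal component of all genes, which held 46.9% of the variance, and Saline 2 lay nearest to them. Results that rest on these libraries are given with and without them. As these are bulk samples, fewer cells of a type and less RNA per cell cannot be told apart.

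The promoters of 2 genes that rose and the gene that fell are shown, as their opposite changes left no overlap between the groups. Each covers 250 bases before and 50 bases after the start nearest to that of the deposited gene model, 5′ to 3′ on the strand of the gene, from RefSeq on GRCm38.p6. Tnc lies at chr4:64046966-64047265 on the minus strand, Postn at chr3:54360857-54361156 on the plus strand and Tnxb at chr17:34670285-34670584 on the plus strand. Capitals mark matches, on either strand, to the motifs searched.
Tnc: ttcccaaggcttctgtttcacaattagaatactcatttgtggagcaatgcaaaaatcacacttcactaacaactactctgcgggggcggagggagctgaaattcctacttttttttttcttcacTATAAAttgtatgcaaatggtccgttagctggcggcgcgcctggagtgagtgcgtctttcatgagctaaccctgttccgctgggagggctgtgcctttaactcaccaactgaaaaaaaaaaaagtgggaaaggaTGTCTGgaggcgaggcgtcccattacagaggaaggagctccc
Postn: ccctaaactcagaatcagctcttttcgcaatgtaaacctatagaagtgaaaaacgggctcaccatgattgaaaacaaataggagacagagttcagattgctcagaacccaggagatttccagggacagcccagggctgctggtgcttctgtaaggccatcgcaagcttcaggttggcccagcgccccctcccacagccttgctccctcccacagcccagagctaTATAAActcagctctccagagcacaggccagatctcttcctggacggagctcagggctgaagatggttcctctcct
Tnxb: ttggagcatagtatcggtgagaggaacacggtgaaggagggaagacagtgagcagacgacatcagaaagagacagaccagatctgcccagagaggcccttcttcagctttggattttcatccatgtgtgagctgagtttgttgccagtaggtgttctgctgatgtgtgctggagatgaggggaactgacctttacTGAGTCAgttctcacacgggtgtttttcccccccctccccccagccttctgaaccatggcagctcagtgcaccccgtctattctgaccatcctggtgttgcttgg
Each of 6 motifs was searched on both strands, and no matches of different motifs overlapped in these windows. The TATA motif (TATAAA) stands 26 bases before the start in the Postn window and 126 bases before it in the Tnc window, and 13.6% of all 32817 promoters of the same length hold it. The Tnc window has one short SMAD element, read on the other strand, just after the start. That motif (CAGACA) is held by 21% of all promoters. The Tnxb window holds the only AP-1 match among the windows of the 7 genes that have one in the table. The AP-1 motif (TGANTCA) is found in 7.81% of all promoters. None of the windows shown holds the TEAD motif (GGAATG), present in 14.7% of all promoters. Likewise none holds the SMAD palindrome (GTCTAGAC), present in 0.213%, or the CArG box of serum response factor, present in 1.63%. Matches describe the letters in these windows and nothing about binding.

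With Ang II, Fn1, Tnc and Postn rose by 3.74-fold to 4.03-fold without overlap between the groups, Tnxb fell 4.24-fold, Tgfbi and Emilin2 rose unevenly, Emilin1 did not pass the test and Vtn was barely detected. Of the 7 genes that passed the filter on low values, 5 rose, 1 fell and 1 did not change past the threshold, by limma at an adjusted p under 0.05 over all genes. Over the 15007 genes tested, 9.54% were higher and 24.9% lower by the same rule. The same 5 genes were at least 2-fold higher and the same 1 at least 2-fold lower, against 2.53% and 3.24% of all genes tested. The median log2 fold change was 1.51 for the 7 genes and -0.12 for all genes tested. All fold changes are on the scale of log2(FPKM + 1), on which low genes appear to change less than they do. Together the 8 genes took 0.589% of all reads with saline and 1.98% with Ang II, on average.

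**Figure D1:**
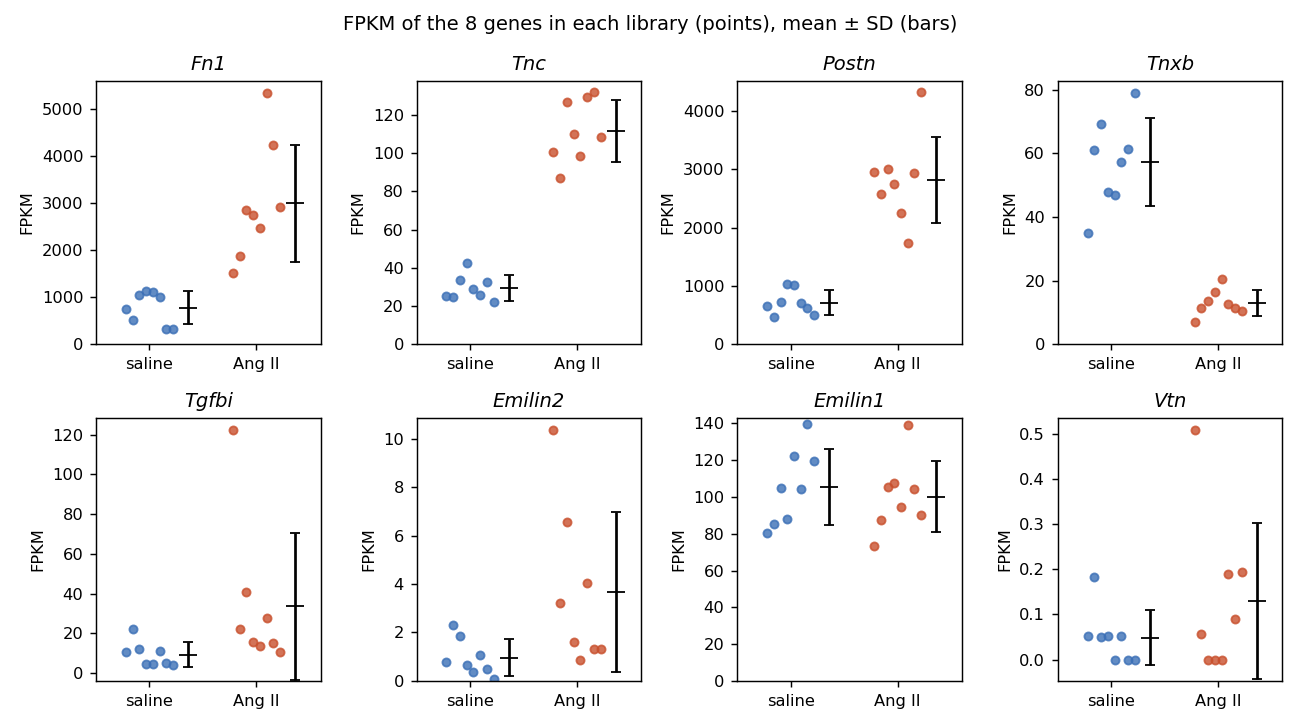
FPKM of each gene in the 8 saline (blue) and 8 Ang II (red) libraries, with 1 point per library and the mean ± SD beside each group; each panel has its own linear axis. The groups do not overlap for Fn1, Tnc, Postn and Tnxb, while single libraries stand out for Tgfbi (122 FPKM) and Vtn (0.507 FPKM).

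Fn1 (ENSMUSG00000026193, chromosome 1, 71585520 to 71653200, minus strand, GRCm38) encodes fibronectin. Its lowest, median and highest FPKM were 318, 879.7 and 1132 with saline and 1523, 2799.7 and 5342 with Ang II. No saline library reached the lowest Ang II library, and the lowest saline values were those of Saline 7 (319.7) and Saline 8 (318). Fn1 rose from 774 ± 346 to 2995 ± 1244 FPKM (mean ± SD), a 4.03-fold change (limma log2 fold change 2.01 with an SE of 0.32, adjusted p = 0.000157). Without Saline 7 and Saline 8 the log2 fold change was 1.64 (limma adjusted p = 0.000230), and without Saline 2 as well it was 1.48 (limma adjusted p = 0.000502). Its share of all reads rose from 0.316% to 1.22%, from 19335 reads in the lowest library to 409024 in the highest. A share of 2.50% of its exon bases overlaps Apol7d on the other strand, and whether reads were counted by strand is not given in the sources used here.

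Tnc (ENSMUSG00000028364, chromosome 4, 63959785 to 64047015, minus strand) encodes tenascin C and varied least within the Ang II group among the 8 genes, with a coefficient of variation of 14.7%. Its lowest, median and highest FPKM were 22.3, 27.1 and 42.5 with saline and 86.8, 109 and 132 with Ang II. The lowest Ang II library held over double the FPKM of the highest saline library. Tnc rose from 29.3 ± 6.61 to 112 ± 16.4 FPKM, with a log2 fold change of 1.90 (SE 0.13, limma adjusted p = 3.85e-08). With each library left out in turn, its log2 fold change ran from 1.85 to 1.98. A share of 2.27% of its exon bases overlaps 8030451A03Rik on the other strand.

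Postn (ENSMUSG00000027750, chromosome 3, 54361109 to 54391037, plus strand) encodes periostin, which binds fibronectin, tenascin C and collagen I. Its lowest, median and highest FPKM were 459.8, 683 and 1041 with saline and 1733, 2847 and 4326 with Ang II. The groups did not overlap, and the high Ang II value was that of Ang II 8. Postn rose from 716 ± 211 to 2819 ± 746 FPKM, a 3.96-fold change (limma log2 fold change 1.99 with an SE of 0.19, adjusted p = 1.19e-06). Its exons overlap no other gene model.

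Tnxb (ENSMUSG00000033327, chromosome 17, 34670535 to 34719815, plus strand) was the one gene of the 8 that fell. Its lowest, median and highest FPKM were 35.0, 59.1 and 79.1 with saline and 6.93, 12.0 and 20.5 with Ang II. The highest Ang II library held less than the lowest saline library. Tnxb fell from 57.2 ± 13.9 to 12.9 ± 4.10 FPKM (limma log2 fold change -2.08 with an SE of 0.19, adjusted p = 5.55e-07), 4.24-fold lower. Its log2 fold change ranked 14995 of 15007 genes tested, from the highest down. Of 10 fibroblast markers, Clec3b (log2 fold change -1.18) and Col14a1 (-0.96) fell and none rose, and Pdgfra, a defining one, had a median FPKM of 4.52 in saline and 3.46 in Ang II libraries, with no call by limma (adjusted p = 0.709). Of 9 tested white adipocyte markers Fabp4 and Plin4 fell, and the summed FPKM of all 10 was 111 to 496 with saline and 67.4 to 195 with Ang II. Both counts are near or under the 24.9% of all genes that fell. Within groups, Tnxb and the summed fibroblast markers had a Pearson's r of -0.16 with saline and 0.08 with Ang II. For the summed white adipocyte markers r was 0.68 with saline and -0.63 with Ang II (exact permutation, adjusted p = 0.314 and 0.343). None of these passed the adjustment over 42 relations with marker sums, which were chosen after the data were seen. The part of these cell types in the fall of Tnxb was not tested.

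No overlap between the groups, as seen for the 3 genes that rose most and for Tnxb, occurred in 2.74% of all genes tested in the higher direction and in 5.62% in the lower. An exact two-sided permutation test of each of these 4 genes gave p = 0.000155, the smallest that the assignments of 16 libraries to 8 and 8 can give. Groups without overlap always give this value, so the test adds nothing to the lack of overlap.

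**Figure D2:**
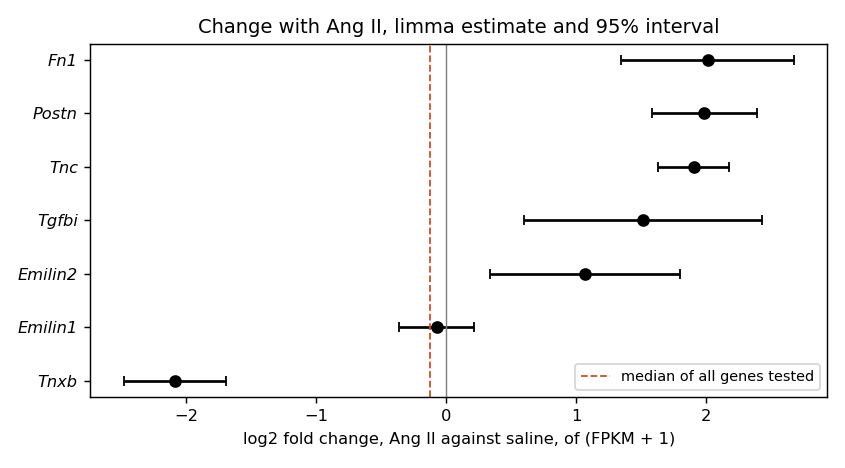
Log2 fold change of (FPKM + 1), Ang II against saline, for the 7 genes tested, with the limma estimate (point) and its 95% interval (bar); the dashed line is the median of all genes tested (-0.12). The intervals of Fn1, Postn and Tnc overlap around 2, Tnxb stands at -2.08, and the interval of Emilin1 spans 0.

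The rise of Tnc and the fall of Tnxb reversed the order of the 2 tenascins. The ratio of Tnc to Tnxb in FPKM was below 1 in every saline library, from 0.282 to 0.892, and above 1 in every Ang II library, from 4.79 to 14.5. This ratio is taken within a library, so a scaling factor shared by both genes cancels nearly in full. The log2 ratio, of FPKM + 1 here and for all ratios that follow, rose by 3.99, from -0.93 ± 0.50 to 3.06 ± 0.47 (exact permutation p = 0.000155, adjusted p = 0.000622 over the 4 ratios tested). As neither tenascin overlapped between the groups, this p was fixed by their opposite changes and is no further evidence. The ratio of Fn1 to Vtn also rose, by 1.91 on the log2 scale (exact permutation p = 0.000466, adjusted p = 0.000932), and follows Fn1, since Vtn was near 0. Postn and Tgfbi, which share fasciclin domains, had a log2 ratio of 6.30 ± 1.08 with saline and 6.77 ± 1.21 with Ang II, a difference of 0.47 that did not pass the test (exact permutation p = 0.415, adjusted p = 0.415). That difference was 0.19 without Saline 2, 0.22 without Ang II 8 and 0.79 without Ang II 1, and did not pass in any of these. For Emilin1 to Emilin2 the log2 ratio fell from 5.83 ± 0.73 to 4.69 ± 1.02 (exact permutation p = 0.0186, adjusted p = 0.0249), with 3 of 8 Ang II libraries below the saline range. With a pseudocount of 0.1 the fall was larger, at -1.83 (exact permutation, adjusted p = 0.0184). Without Saline 7 and Saline 8 that ratio fell by 0.86 and did not pass (exact permutation, adjusted p = 0.116).

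**Figure D3:**
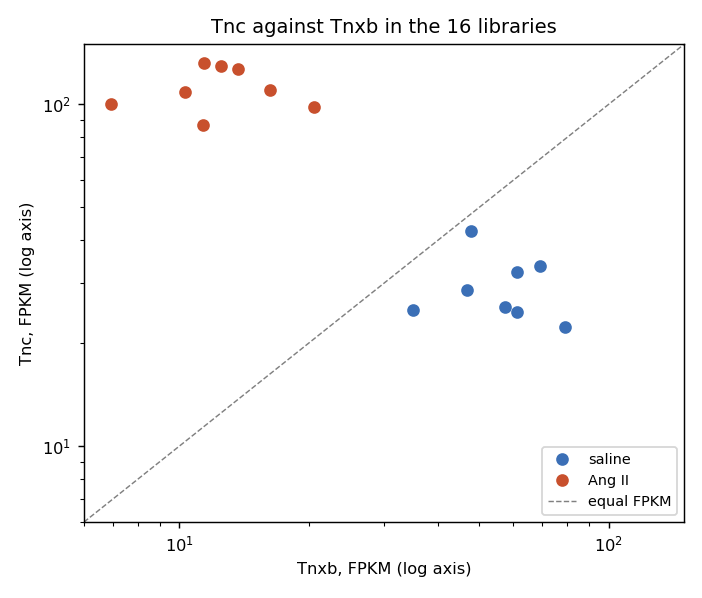
Tnc against Tnxb in FPKM, both axes logarithmic, with 1 point per library (blue, saline; red, Ang II) and a dashed line where both are equal. The saline libraries lie below the line (ratios 0.282 to 0.892) and the Ang II libraries above it (4.79 to 14.5).

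Tgfbi (ENSMUSG00000035493, chromosome 13, 56609523 to 56639562, plus strand) is named for its induction by TGF-beta. Its lowest, median and highest FPKM were 3.90, 7.72 and 22.2 with saline and 10.6, 19.0 and 122 with Ang II. The groups overlapped: 3 Ang II libraries exceeded the highest saline one, Ang II 1 far above the others and Ang II 3 next at 40.8. Tgfbi rose with a log2 fold change of 1.51 (SE 0.44, limma adjusted p = 0.0130), from 9.19 ± 6.27 to 33.5 ± 37.2 FPKM. Without Ang II 1 and Ang II 3 the log2 fold change was 1.01 (limma adjusted p = 0.0401), and without Saline 7 and Saline 8 it was 1.27 (limma adjusted p = 0.0447).

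Emilin2 (ENSMUSG00000024053, chromosome 17, 71252172 to 71311978, minus strand) was low, with 2 to 279 reads per library. Its lowest, median and highest FPKM were 0.0787, 0.720 and 2.33 with saline and 0.874, 2.42 and 10.4 with Ang II. The 4 highest libraries were all Ang II libraries, led by Ang II 1 and Ang II 3 (6.55), and the other 4 lay within the range of saline. Emilin2 rose from 0.959 ± 0.772 to 3.66 ± 3.31 FPKM (limma log2 fold change 1.07 with an SE of 0.35, adjusted p = 0.0247). The size depends on the scale, as limma voom on the recovered reads gave a log2 fold change of 1.89 (adjusted p = 0.0356). The call was lost without Ang II 3 (log2 fold change 0.93, limma adjusted p = 0.0529), without Ang II 1 and Ang II 3 (0.64, limma adjusted p = 0.0980) and without Saline 7 and Saline 8 (0.89, limma adjusted p = 0.0748).

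Tgfbi and Emilin2 followed each other from library to library. Within saline Pearson's r was 0.92 (exact permutation p = 7.44e-05, adjusted p = 0.00313) and Spearman's rho 0.98 (exact permutation p = 0.000397, adjusted p = 0.00833). Within Ang II r was 0.95 (exact permutation p = 0.000273, adjusted p = 0.00573) and rho 0.98 (exact permutation p = 0.000397, adjusted p = 0.00833). Without the 2 libraries farthest from the median of Tgfbi, r was 0.83 within saline and 0.91 within Ang II. Adjustment was over 42 relations, every pair of the 7 tested genes in each group.

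Macrophage markers followed these genes within Ang II, and the relations with marker sums were chosen after the data were seen. Of 10 macrophage markers 3 rose (Adgre1, Csf1r and Itgam) and none fell, against 9.54% and 24.9% of all genes tested. No macrophage marker was at 0 throughout. Their summed FPKM was 21.6, 56.1 and 644 (lowest, median and highest) with saline and 61.7, 228 and 694 with Ang II, highest in Ang II 1. Within Ang II the sum followed Tgfbi with r = 0.87 (exact permutation p = 0.00179, adjusted p = 0.0375) and rho = 0.90 (exact permutation p = 0.00456, adjusted p = 0.0479), and r = 0.84 without Ang II 1 and Ang II 3. It followed Emilin2 there with r = 0.94 (exact permutation p = 0.000818, adjusted p = 0.0344) and rho = 0.93 (exact permutation p = 0.00223, adjusted p = 0.0469), and r = 0.94 without the same 2 libraries. Within saline the relation with the macrophage sum did not pass the adjustment for Tgfbi (r = 0.74, exact permutation p = 0.0289, adjusted p = 0.173; rho = 0.79, exact permutation p = 0.0279, adjusted p = 0.147). Nor did it for Emilin2 (r = 0.59, exact permutation p = 0.115, adjusted p = 0.372; rho = 0.83, exact permutation p = 0.0154, adjusted p = 0.0923). Saline 1 held the highest saline sum, 644, with 10.6 FPKM of Tgfbi and 0.794 of Emilin2. Within saline Emilin2 followed the summed fibroblast markers (r = 0.89, exact permutation p = 0.00345, adjusted p = 0.0483; rho = 0.95, exact permutation p = 0.00114, adjusted p = 0.0469; r = 0.96 without Saline 2 and Saline 3). Tgfbi did so by rank there (rho = 0.90, exact permutation p = 0.00456, adjusted p = 0.0479) but not by r (0.86, exact permutation p = 0.00575, adjusted p = 0.0521; 0.81 without Saline 2 and Saline 8). Within Ang II neither relation passed, with r = 0.39 for Tgfbi (exact permutation p = 0.348, adjusted p = 0.770; rho = 0.33, exact permutation p = 0.428, adjusted p = 0.899) and for Emilin2 as low as 0.16 (exact permutation p = 0.703, adjusted p = 0.882; rho = 0.24, exact permutation p = 0.582, adjusted p = 0.906). The difference between the groups in these relations was not tested, and neither was the part of macrophages or fibroblasts in the rise of Tgfbi and Emilin2. These 42 relations with marker sums were a family of their own. They covered each of the 7 tested genes against the macrophage, fibroblast and white adipocyte sums in each group. No relation of another gene passed the adjustment. Within saline the nearest were Emilin1 with the macrophage sum (r = -0.84, exact permutation p = 0.00620, adjusted p = 0.0521) and Postn with the white adipocyte sum (r = -0.86, exact permutation p = 0.00838, adjusted p = 0.0587).

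**Figure D4:**
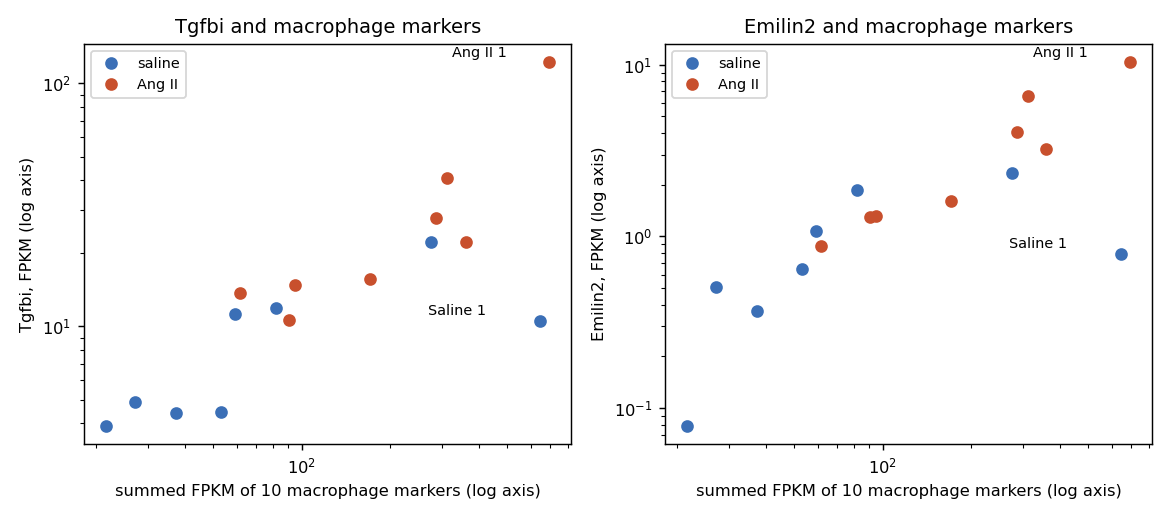
Tgfbi (left) and Emilin2 (right) in FPKM against the summed FPKM of 10 macrophage markers, all axes logarithmic, with 1 point per library (blue, saline; red, Ang II). Ang II 1 is highest on every axis (694 FPKM of markers), and Saline 1 has a like sum (644) with 10.6 FPKM of Tgfbi and 0.794 FPKM of Emilin2.

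Emilin1 (ENSMUSG00000029163, chromosome 5, 30913402 to 30921277, plus strand) did not pass the test. Its lowest, median and highest FPKM were 80.5, 104 and 139.7 with saline and 73.2, 99.3 and 139 with Ang II, nearly the same range. The means were 106 ± 20.7 and 100.1 ± 19.4 FPKM, with a log2 fold change of -0.07 and a 95% interval from -0.36 to 0.21 (limma adjusted p = 0.699). Its sign depended on how libraries were scaled (0.071 after scaling by median ratios). Within Ang II, Emilin1 followed Fn1 by r = 0.90 (exact permutation p = 0.00342, adjusted p = 0.0479) but not past the threshold by rank (rho = 0.71, exact permutation p = 0.0576, adjusted p = 0.302). Without Ang II 1 and Ang II 6, r was 0.61, so the relation rests on those libraries.

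Vtn (ENSMUSG00000017344, chromosome 11, 78499091 to 78502324, plus strand) was below the filter on low values and had no test across genes. It had 7 reads in all over the 8 saline libraries and 20 reads over the 8 Ang II libraries, 9 of them in Ang II 1. No read was seen in 3 saline and in 3 Ang II libraries, where a count of 0 allows up to 0.134 to 0.183 FPKM (3 reads, over the 16 libraries, counting error only). The FPKM means were 0.0488 ± 0.0599 and 0.130 ± 0.172, a difference that an exact permutation test did not pass (p = 0.265). Hepatocyte markers, for the organ that makes most vitronectin, were also near 0, at a summed FPKM of 0 to 2.09 in saline and 0 to 4.87 in Ang II libraries.

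By level, Fn1 and Postn led in both groups and their ranges overlapped in each. With saline Emilin1, Tnxb, Tnc, Tgfbi and Emilin2 followed in that order of mean FPKM, and only the neighbours Tnxb and Tnc overlapped in range. With Ang II Tnc and Emilin1 followed Fn1 and Postn with overlapping ranges, then Tgfbi, Tnxb and Emilin2, each overlapping its neighbour. These levels depend on the transcript length behind the FPKM, which was the mean over annotated transcripts, 4085 bases for Fn1 and 2275 for Postn. Per base of all exons, from the deposited lengths of 11685 and 8702 bases, the means of Fn1 and Postn with Ang II were 1047 and 737 FPKM, and the order of the means within each group was the same.

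Among the genes that rose without overlap, a shared order of libraries in either group was not always kept in the other. Within saline Fn1 followed Postn by rank (rho = 0.93, exact permutation p = 0.00223, adjusted p = 0.0312) but did not pass by r (0.76, exact permutation p = 0.0337, adjusted p = 0.283; 0.90 without Saline 7 and Saline 8). Within Ang II Fn1 and Tnc had r = 0.82 (exact permutation p = 0.0145, adjusted p = 0.152), rho = 0.83 (exact permutation p = 0.0154, adjusted p = 0.161) and r = 0.90 without Ang II 1 and Ang II 6, which did not pass the adjustment. Fn1 with Postn there had r = -0.33 and rho = -0.05, and Tnc with Postn had r = -0.09 and rho = 0.10. Within saline Tnc with Postn had r = 0.70 and rho = 0.79, and Fn1 with Tnc had r = 0.43 and rho = 0.71. None of these passed the adjustment. Of the other pairs of the 7 genes, only Tgfbi with Emilin2 in both groups and Fn1 with Emilin1 within Ang II, by r alone, passed it.

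The family relatives of these genes gave no call. Of 7 relatives, the 4 tested were the tenascins Tnn and Tnr, the endothelial multimerin Mmrn2, which belongs to the EMILIN family, and the fasciclin-domain receptor Stab1. None of the 4 rose or fell by limma, and their log2 fold changes ran from -0.13 to -0.05. Mmrn2 held 58.9 ± 30.0 FPKM with saline and 55.3 ± 29.4 with Ang II, and Stab1 held 117 ± 50.9 and 109.6 ± 47.8 (limma adjusted p = 0.861 and 0.785). Tnn and Tnr held under 1 FPKM on average in both groups. Emilin3, Mmrn1 and Stab2 were below the filter.

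Of 15 tested genes in a list of cell surface receptors, 5 rose and 2 fell (median log2 fold change 0.27, against -0.12 for all genes). Over all genes tested 9.54% rose and 24.9% fell, and this list was chosen with earlier results of these data known. Both chains of the classical fibronectin receptor rose: Itga5 from 270.2 ± 144 to 449 ± 104 FPKM (log2 fold change 0.85, limma adjusted p = 0.0144) and Itgb1 from 642 ± 294 to 1143 ± 227 FPKM (0.99, limma adjusted p = 0.0145). Itgav, the chain shared by vitronectin receptors, and Sdc1, a heparan sulphate proteoglycan, also rose. Plaur, the urokinase receptor, which binds vitronectin, rose from 9.22 ± 1.87 to 35.4 ± 14.1 FPKM in all 8 Ang II libraries above every saline library (log2 fold change 1.76, limma adjusted p = 8.23e-06). Itgb8, whose integrin activates latent TGF-beta, fell from 1.67 ± 0.901 to 0.503 ± 0.0553 FPKM (limma adjusted p = 0.00717). It was low, and all its Ang II values (0.456 to 0.598 FPKM) lay within the saline range (0.182 to 2.86 FPKM). The laminin receptor chain Itga7 fell with a log2 fold change of -0.47. Itga9, a receptor chain for tenascin C, did not pass by limma (log2 fold change 0.42, adjusted p = 0.0822). The number of receptors that rose was 3 without Saline 2, without Saline 8 or without any one of the 5 Ang II libraries numbered 3 to 7, and the number that fell was 1 without Ang II 1.

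Of 14 matrix partners, 12 rose and none fell, against 9.54% and 24.9% of all genes tested, with a median log2 fold change of 1.49. This list was chosen with the results of these samples known, so its count is no independent evidence of a direction. Lox, whose enzyme cross-links collagen and elastin, had a log2 fold change of 2.71, Eln (elastin) of 2.84 and Col1a1 of 2.11. Bmp1, the protease that activates lysyl oxidase and is held on periostin, was at 115 ± 63.6 and 107 ± 20.9 FPKM (log2 fold change 0.02, limma adjusted p = 0.943). Fbln1, a fibronectin-binding fibulin, had 2.27 ± 1.64 and 1.68 ± 1.63 FPKM and did not pass (limma adjusted p = 0.398).

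Of 12 genes of TGF-beta signalling, a pathway known to induce Fn1, Tnc, Postn and Tgfbi, 3 rose and 1 fell (median log2 fold change 0.30). The shares over all genes tested were 9.54% and 24.9%, and this list too was chosen with earlier results known. The ligand Tgfb2 rose from 45.0 ± 18.3 to 107 ± 25.1 FPKM (log2 fold change 1.31, limma adjusted p = 0.000598). The type I receptor Tgfbr1 rose by 0.51 and the SMAD repressor Skil by 0.86 on the log2 scale, and the co-receptor Tgfbr3 fell with a log2 fold change of -1.61. Tgfb1, Tgfb3, Tgfbr2, Furin and the 4 SMAD genes listed did not pass the test. Without Saline 8 the number that fell was 2.

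**Figure D5:**
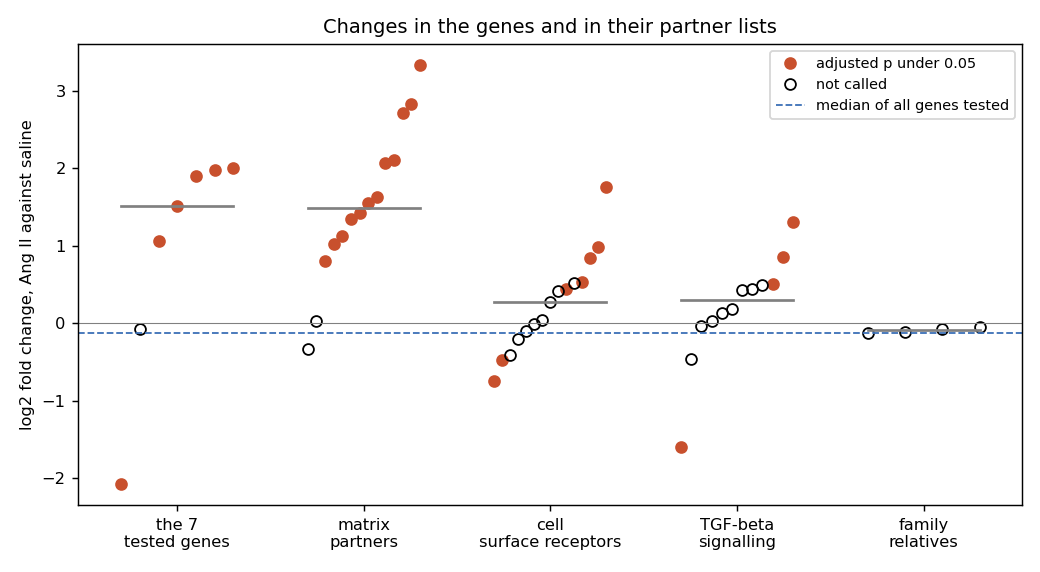
Log2 fold change of each tested gene, Ang II against saline, in the 7 tested genes and the 4 lists of partners and relatives; filled points passed limma at an adjusted p under 0.05, open points did not, grey bars are list medians and the dashed line is the median of all genes (-0.12). The medians are 1.51 for the 7 genes, 1.49 for matrix partners, 0.27 for receptors, 0.30 for TGF-beta signalling and -0.09 for relatives.

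The genes nearest to these in their variation within groups were sought by the correlation of deviations from the group means over the 16 libraries, among 9230 genes with a mean of at least 5 FPKM. For Tnc the 5 nearest were Spryd4 (r = 0.83), Col3a1 (0.80), D11Wsu47e (0.79), Fbln2 (0.78) and Col4a2 (0.77), among which Col3a1, Fbln2 and Col4a2 encode matrix proteins. Among those nearest to Postn were Enpep (0.87), which encodes an aminopeptidase that degrades Ang II, Fam114a1 (0.85), Fam81a (0.83) and Snx6 (0.83). For Fn1 the 5 nearest were Plekha2, Trim35, Ikbkg, Crebrf and Fbxo21, with r from 0.94 to 0.96, and from 0.92 to 0.94 without Saline 7 and Saline 8. Among those nearest to Tnxb were Gcn1l1, Nbeal2, Med15 and Tnks1bp1, with r from 0.83 to 0.87. The libraries share their depth and composition across genes, so these values only describe likeness.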

How the data were processed

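The authors deposited a table with FPKM values, that is, fragments per transcript length and library size, and 1 column per library. Libraries were made from 1 ug of Trizol-extracted RNA with a SMARTER mRNA-seq kit, per the labels' protocols. The submitters' processing notes name the genome build GRCm38, also called mm10. Not given in the sources used here are the aligner, the counter and the use of strand. Groups came from the sample titles, and columns were matched by library name.

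Gene IDs were matched to GENCODE M21 (99.93% found). Reads were recovered as FPKM times mean transcript length times library reads, and 95.8% to 96.2% of values above 0 in a library came out whole within 0.02 of a read. The precision of low genes is limited by the worth of a single read, 0.0500 to 0.0685 FPKM for a transcript 1 kilobase long.

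Values of log2(FPKM + 1) were fitted with limma (version 3.58.1, under R 4.3.3, trend option on) and tested two-sided for genes with a mean of at least 0.5 FPKM over the 16 libraries, with Benjamini-Hochberg adjustment over all of them and no covariate. The fit was tested on simulated data. Ratios and correlations had exact permutation tests in Python 3.11.15 with numpy 2.4.6, two-sided. Named genes were the 8 genes, up to 3 rising and 3 falling genes per list, those of lowest adjusted p with at least 1 FPKM on average, relatives above the filter, and the 5 nearest genes of 4 members (predicted genes left out, and 2 of these nearest genes not reported here); other list genes are named to account for the lists and were chosen after their values were seen. Members and lists were chosen with earlier results of these data known. Alternatives were another pseudocount, filters, scalings, sample weights, a Wilcoxon test, the replicate number as a block and leaving out libraries; voom on recovered reads, leaving out Ang II 1 and Ang II 3, the relations with marker sums and the likeness without Saline 7 and Saline 8 were chosen after seeing the data.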

Additional observations from a re-analysis of the deposited data

Results flagged for a closer look

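Dixon's criterion was applied to 24 groups of 8 values, the FPKM of the 8 genes and 4 log2 ratios in each group. Chance alone meets it in about 1 in 20 groups where values are normally distributed. That rate was not checked for FPKM, used here without logarithms, or for Vtn with 0 to 9 reads per library. The number of flags was therefore not set against chance. In 4 of the 24 groups one library lay far from the others by this criterion. For Tgfbi these were Saline 2 at 22.2 FPKM, with the next library at 11.9, and Ang II 1 at 122 FPKM, with the next at 40.8. For Vtn they were the same 2 libraries, Saline 2 at 0.183 FPKM (3 reads), with the next at 0.0526, and Ang II 1 at 0.507 FPKM (9 reads), with the next at 0.193. In Saline 2 and Ang II 1 the summed FPKM was 274 and 694 for macrophage markers, 237.5 and 238 for fibroblast markers and 40.1 and 168 for platelet markers. The fibroblast and platelet sums were the highest of their group in these 2 libraries, while the macrophage sum of saline was highest in Saline 1 (644). The part of these cells in the Tgfbi and Vtn values was not tested.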

How the results depend on the processing

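Fn1, Tnc, Postn, Tnxb and Tgfbi kept their direction and their call in all 28 alternatives, with log2 fold changes from 1.48 to 2.16, 1.82 to 2.10, 1.75 to 2.13, -2.18 to -1.93 and 1.01 to 1.71. Emilin1 did not pass in any, and its sign changed with quantile normalization (0.15), median ratio scaling (0.071), sample weights (0.036) and without Saline 7 and Saline 8 (0.030). Emilin2 lost its call with no filter on low values (log2 fold change 1.07, limma adjusted p = 0.0634, with more genes tested), without Saline 7 and Saline 8 (0.89), without these and Saline 2 (1.03), and without Ang II 1 and Ang II 3 (0.64); leaving out single libraries gave 0.84 to 1.21. The log2 ratio of Emilin1 to Emilin2 lost its call without Saline 7 and Saline 8 (-0.86) and without Saline 2 too (-1.03; adjusted p = 0.0767), and ran from -1.30 to -0.86 with single libraries left out, losing its call without Saline 5, Saline 7 or Saline 8. With a pseudocount of 0.1 it was -1.83. The ratios of Tnc to Tnxb and of Fn1 to Vtn kept their calls in 20 alternatives, and that of Postn to Tgfbi passed in none, with differences from 0.19 to 0.79. Over all genes, 2270 were higher and 2374 lower with quantile normalization and 2238 and 2114 with median ratio scaling, against 1431 and 3741; median ratio scaling moved the median log2 fold change of all genes from -0.12 to -0.003. Receptors that rose numbered 7 with quantile normalization or median ratio scaling, 3 with no filter and 2 by the Wilcoxon test. With single libraries left out they numbered 3 to 6. Receptors that fell numbered 3 with sample weights, and 1 to 2 with single libraries left out. They numbered 1 with no filter, quantile normalization, median ratio scaling or without Ang II 1 and Ang II 3. TGF-beta genes that rose numbered 5 with either scaling, and those that fell 2 with sample weights, without Saline 7 and Saline 8 and without Saline 2 as well, and 1 to 2 with single libraries left out. The cause of these shifts was not tested. With the replicate number as a block, Fn1 stood at 2.01 on the log2 scale (limma adjusted p = 0.00101) and Emilin2 at 1.07 (limma adjusted p = 0.00716), and no call of the 7 genes changed; the correlation of same-numbered libraries ran from -0.25 to 0.39 and 2 of 8 matched their own number best, so the numbers were not taken as pairs. Vtn, with 0 to 9 reads per library, was measured with the least precision.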
